A study of Rattus norvegicus with 28 samples.

Results

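The genes examined here code for the collagens, the laminins, the matrix metalloproteinases (MMPs) with their tissue inhibitors (TIMPs), and the ADAMTS proteases with the ADAMTS-like proteins, measured in the striatum of rats. They were chosen by name: protein-coding genes whose symbol was Col, Lama, Lamb, Lamc, Mmp or Timp followed by a number, or began with Adamts. This gave 108 of 39538 rows of the table, with 107 distinct symbols, since Mmp17 stood in 2 rows. There were 44 collagens, 11 laminins, 24 MMP rows, 4 TIMPs, 19 ADAMTS proteases and 5 ADAMTS-like genes. Col4a3bp met the name rule as well but codes for a ceramide transfer protein and not for a matrix protein.

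The study looked for genes that differ in the striatum between wild-type (wt) rats and rats of the ΔETorA genotype, a model of the movement disorder DYT-TOR1A, called TG here as in the sample titles. Rats of each genotype were either naive or had a crush of the right sciatic nerve. All were male, and the labels give 12 weeks post injury for every library, naive ones included. The naive groups had 8 libraries each and the crush groups 6 each. The promoter that drives the transgene, the ages and the side of the striatum are not given in the sources used here.

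Collagens are secreted triple-stranded proteins. Fibrillar collagens form the fibres of connective tissue, whereas collagen IV forms a network in basement membranes, which in the brain surround the vessels and underlie the pia. Laminins join an alpha, a beta and a gamma chain and form the other main network of the basement membrane. MMPs cut matrix proteins and TIMPs block them, while ADAMTS proteases trim procollagens or cut the proteoglycans that fill much of the space between brain cells.

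The libraries held 29151455 to 38407359 assigned reads. A level is given as RPM, reads per 1000000 reads assigned to genes, which is not per length, so levels were tested between groups and not between genes. Where members are ordered or picked by level, the order is that of reads and not of transcript number. The human TOR1A transcript lay between 102 and 144 RPM in the TG libraries and reached at most 0.972 RPM in the wt libraries. The spiny neuron gene Ppp1r1b, a defining marker of striatum, was between 1300 and 3037 RPM. The cortical gene Slc17a7 exceeded 20 RPM in 5 libraries, of which 3 were wt naive, 1 TG naive, 1 TG crush and 0 wt crush. The labels number the libraries but do not say that each came from another animal, so the spread behind each p-value is that between libraries and may be technical. In bulk tissue, fewer cells of a type and less RNA per cell cannot be told apart.

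Of the 108 rows, 86 reached 0.5 RPM in at least 6 libraries and were tested, and 22 were not. All 11 laminins, all 4 TIMPs and all 5 ADAMTS-like genes were tested, with 37 of 44 collagens, 17 of 19 ADAMTS proteases and 11 of 24 MMP rows. Among the MMPs, 6 of 7 rows grouped here as membrane-type were tested but only 5 of 17 grouped as secreted. Under the minimum were several inducible proteases: the gelatinase Mmp9 averaged 0.291 RPM over all libraries, the collagenase Mmp13 0.0838 RPM, the macrophage elastase Mmp12 0.0403 RPM and the stromelysin Mmp3 0.00722 RPM. Mmp1 and Mmp27 had 0 reads in all 28 libraries, and by counting error alone the shallowest library could hide up to 0.103 RPM (3 reads). The collagens under the minimum were Col6a4, Col6a5, Col6a6, Col9a1, Col10a1, Col26a1 and Col28a1, with means from 0.0745 to 0.430 RPM. The remaining genes not tested were Adamts8, Adamts18, the membrane-type Mmp25 and the secreted Mmp1b, Mmp7, Mmp8, Mmp10, Mmp20 and Mmp21.

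**Figure D1:**
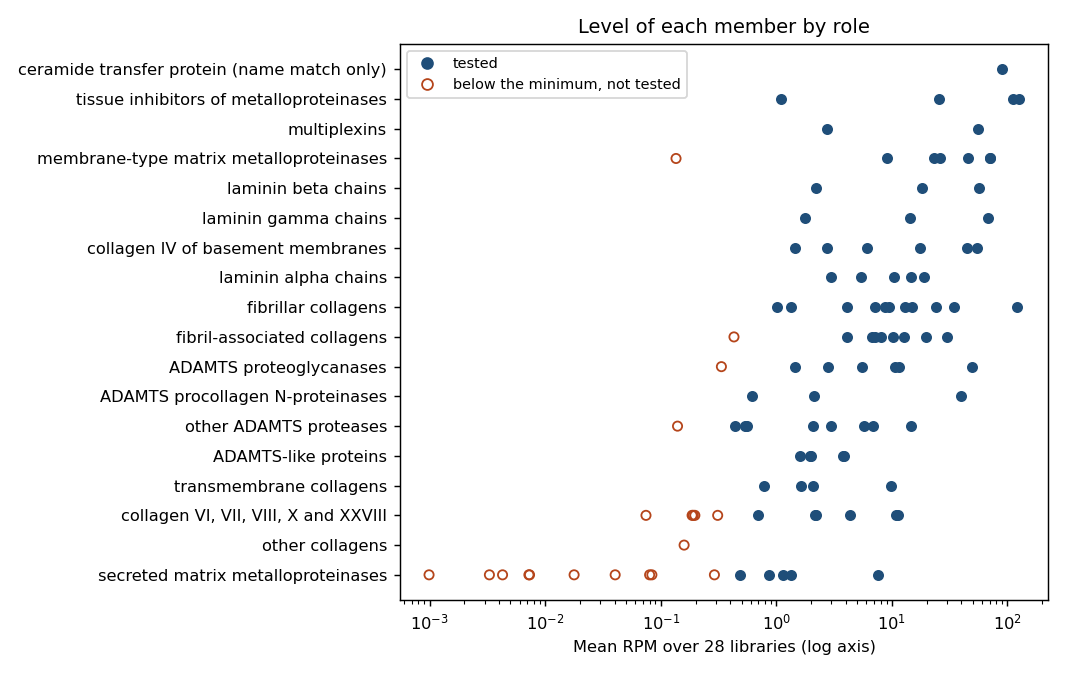
Mean level of each member over 28 libraries (RPM on a log axis), in rows by role; filled points were tested, open points were under the minimum, and Mmp1 and Mmp27, at 0, are not drawn. The MMPs grouped as secreted hold 12 of the 22 members not tested, while every laminin and TIMP was tested.

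In the fit used here, the matrix genes called after nerve crush were lower. Most genes called over the whole table were lower too, 1534 of 2086 on the mean of both genotypes. The called members came from collagen IV, fibrillar collagen, the MMPs and single members of other groups. On the mean of the wt and the TG change 13 of 86 members fell and 0 rose (limma adjusted p under 0.05), where 8.42% of the 18222 genes tested fell, 3.03% rose and 11.4% were called in either direction. At an unadjusted p under 0.05 there were 32 members, against 28.5% of all genes. The 13 were Mmp14, Mmp15 and Mmp11, the collagens Col4a1, Col4a2, Col4a5, Col1a1, Col3a1, Col5a3 and Col23a1, the laminin chain Lamc3, the inhibitor Timp4 and the ADAMTS-like gene Adamtsl4. The share of members called, 15.1% and all lower, stands beside 8.42% of all genes called lower and 11.4% called in either direction. These shares were not compared by a test. The median log2 change of the 86 members was -0.11, against -0.02 over all genes tested, and 63 of the 86 values were below 0. The matching share of all genes is not given here, so that count is descriptive. With median-of-ratios rescaling the median over all genes became 0.002.

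The split into higher and lower calls depended on the scaling. With median-of-ratios rescaling or with quantile normalization 10 members fell and 3 rose, namely Adamts19, Col4a3bp and Mmp16, and Col3a1, Timp4 and Adamtsl4 were no longer called. Single libraries mattered too: without TG crush library 223, 20 members fell and 4 rose, and without TG crush library 222, 8 fell and 0 rose. Without the 5 libraries high in Slc17a7, the 5 calls were Mmp14, Col4a1, Col4a2, Lamc3 and Mmp11, all lower.

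With each genotype on its own, 1 of 86 members fell in wt rats, where 0.159% of all genes were called, and it was Mmp14. In TG rats 3 of 86 fell, where 3.08% of all genes were called, and they were Mmp14, Col4a1 and Col4a2. The median log2 change of the members was -0.17 in wt and -0.07 in TG rats, against -0.03 and -0.01 over all genes. At an unadjusted p under 0.05 there were 29 members in wt and 19 in TG rats, against 20.8% and 19.3% of all genes. The TG count was 9 without TG crush library 223, 7 without TG naive library 188 and 5 without TG naive library 187. The wt count was 11 without wt naive library 196, 3 without wt naive 199, TG naive 188 or TG crush 223 (the spread is shared by all groups), 2 without wt naive 202 or wt crush 203, and 0 without wt naive 197 or 201 or wt crush 205, 207 or 210.

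**Figure D2:**
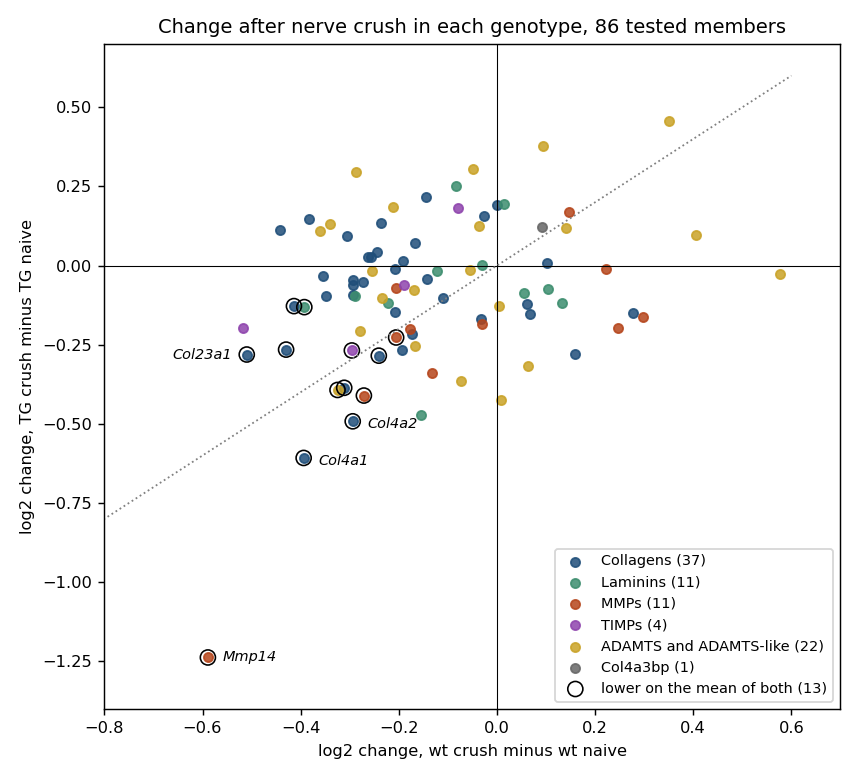
Log2 change after crush of each of the 86 tested members in wt rats (x axis) and in TG rats (y axis), coloured by family; rings mark the 13 members that fell on the mean of both and the dotted line marks equal change. Mmp14 lies apart from the rest at -0.59 in wt and -1.24 in TG rats.

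Mmp14 codes for MT1-MMP, a protease anchored in the cell membrane that cuts fibrillar collagen and activates the gelatinase MMP2. The gene lies on chromosome 15 at 33074441 to 33083666 on the plus strand of Rnor_6.0. Its level was 7.58, 9.37 and 13.5 RPM (lowest, median, highest) in wt naive and 5.71, 5.997 and 7.23 RPM in wt crush libraries, and 10.5, 13.1 and 18.6 RPM in TG naive and 4.29, 5.36 and 5.90 RPM in TG crush libraries. All 12 crush libraries, at 4.29 to 7.23 RPM, lay below all 16 naive libraries, at 7.58 to 18.6 RPM. How many of all genes split in this way over both genotypes was not counted. Mmp14 fell to 0.665 times the naive level in wt rats (log2 change -0.59, SE 0.11, limma adjusted p = 0.0221) and to 0.424 times in TG rats (log2 change -1.24, SE 0.11, limma adjusted p = 3.88e-08). The mean change was -0.91 (SE 0.08, adjusted p = 1.08e-08). Of all genes tested, 0.527% were lower without overlap in wt crush libraries, with Mmp14 as the 1 member among them, and 0.51% in TG crush libraries, with the 2 members Mmp14 and Col4a1.

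The wt call of Mmp14 was lost with the level of spiny neuron markers as a covariate (-0.45, adjusted p = 0.229), with the endothelial and pericyte level (-0.58, adjusted p = 0.0756) and with the fibroblast and meningeal level (-0.52, adjusted p = 0.149). It was also lost when wt naive 197 or 201, or wt crush 205, 207 or 210, was left out, with adjusted p from 0.0524 to 0.0708. In wt rats the spiny neuron markers, of which 0 of 12 passed, had a median log2 change of 0.40, and the cortical markers, of which 0 of 6 passed, of -0.72. Of the fibroblast and meningeal markers Slc6a13 fell in wt rats, at -0.52 (adjusted p = 0.0423). The TG call of Mmp14 and the call on the mean were kept under all 13 alternatives and with each of the 28 libraries left out.

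The other membrane-type MMPs varied in sign. Mmp15 (MT2-MMP) had 64.4, 73.4 and 86.1 RPM (lowest, median, highest) in wt naive and 60.5, 64.4 and 68.5 RPM in wt crush libraries, and 63.5, 79.7 and 83.3 RPM in TG naive and 54.9, 61.5 and 79.7 RPM in TG crush libraries. Mmp15 fell on the mean (log2 change -0.22, SE 0.06, limma adjusted p = 0.0155), with 6 of 12 crush libraries below every naive library. Mmp24 (MT5-MMP), a form found mainly in neurons, had a mean change of -0.11 (adjusted p = 0.150), and Mmp16 (MT3-MMP) one of 0.16 (adjusted p = 0.0744). The 2 rows of Mmp17 (MT4-MMP) lie on chromosome 12 under 1 gene identifier, so reads may be split between them and both are uncertain. Their mean changes were 0.03 (adjusted p = 0.853) and 0.07 (adjusted p = 0.608).

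Of the MMPs grouped as secreted, Mmp11 (stromelysin-3) fell on the mean (log2 change -0.34, SE 0.08, limma adjusted p = 0.0111). Its level was low, with 0.752, 0.949 and 1.31 RPM (lowest, median, highest) in wt naive and 0.397, 0.769 and 0.856 RPM in wt crush libraries, and 0.719, 1.01 and 1.46 RPM in TG naive and 0.379, 0.666 and 0.837 RPM in TG crush libraries. The groups overlapped, although 11 of 16 naive libraries lay above every crush library. The gelatinase Mmp2, whose proenzyme MT1-MMP activates, had 6.44, 8.18 and 9.78 RPM (lowest, median, highest) in wt naive and 6.59, 7.44 and 7.88 RPM in wt crush libraries, and 5.75, 7.88 and 9.31 RPM in TG naive and 4.68, 6.30 and 8.71 RPM in TG crush libraries. Its mean change of -0.23 (SE 0.08, adjusted p = 0.0508) did not pass. Neither did Mmp19 with -0.14 (adjusted p = 0.433), Mmp23 with 0.11 (adjusted p = 0.495) or Mmp28 with -0.19 (adjusted p = 0.0962).

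**Figure D3:**
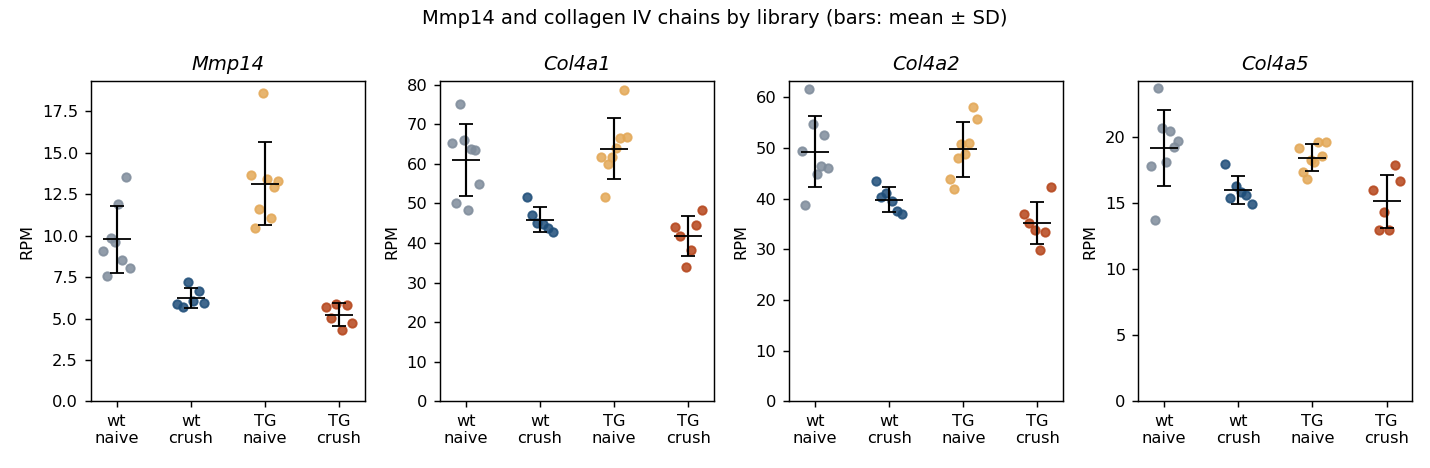
RPM (y axis) of Mmp14, Col4a1, Col4a2 and Col4a5 in each library by group, with points for libraries and the mean with its SD. For Mmp14 the 12 crush libraries sit between 4.29 and 7.23 RPM, below the 16 naive libraries, while for Col4a2 and Col4a5 naive and crush libraries overlap in both genotypes. The share of all genes that split over both genotypes as Mmp14 did was not counted.

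Collagen IV held 3 of the 7 collagens called on the mean. All 6 chains were tested and had mean values below 0, and Col4a1, Col4a2 and Col4a5 fell. Col4a3, at -0.19 (adjusted p = 0.114), Col4a4, at -0.18 (adjusted p = 0.240), and Col4a6, at -0.23 (adjusted p = 0.0826), did not pass. Col4a1 and Col4a2 code for the chains of the most widespread collagen IV, and the genes lie head to head on chromosome 16. In Rnor_6.0 Col4a1 runs from 83522162 to 83632153 on the plus strand and Col4a2 from 83386388 to 83522169 on the minus strand, so that the gene spans overlap by 8 bases. Col4a5 runs from 112769595 to 112983720 on the plus strand of chromosome X, with Col4a6 on the minus strand 1257 bases away.

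Because Col4a1 and Col4a2 share the stretch between their starts, windows of 300 bases (250 before to 50 after the start) are shown beside that of Col4a5, the other collagen IV chain called on the mean. They come from RefSeq in the GRCr8 build and each is read 5′ to 3′ along its own gene, at chr16:84885347-84885646 (plus strand), chr16:84885471-84885770 (minus strand) and chrX:109907109-109907408 (plus strand). Capitals mark CCAAT and GGGCGG on either strand.
Col4a1: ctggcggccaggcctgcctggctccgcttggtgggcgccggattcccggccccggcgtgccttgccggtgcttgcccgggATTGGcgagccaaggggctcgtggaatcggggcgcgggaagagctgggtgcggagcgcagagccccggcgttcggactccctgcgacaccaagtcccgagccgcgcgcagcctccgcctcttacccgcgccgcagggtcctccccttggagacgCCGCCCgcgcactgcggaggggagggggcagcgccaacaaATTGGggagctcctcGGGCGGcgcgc
Col4a2: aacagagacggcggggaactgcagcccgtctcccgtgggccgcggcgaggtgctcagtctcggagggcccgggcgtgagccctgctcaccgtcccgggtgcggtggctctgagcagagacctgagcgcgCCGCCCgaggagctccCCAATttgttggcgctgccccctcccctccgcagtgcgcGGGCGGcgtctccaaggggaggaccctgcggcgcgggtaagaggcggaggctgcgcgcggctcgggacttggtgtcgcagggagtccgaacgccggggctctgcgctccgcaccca
Col4a5: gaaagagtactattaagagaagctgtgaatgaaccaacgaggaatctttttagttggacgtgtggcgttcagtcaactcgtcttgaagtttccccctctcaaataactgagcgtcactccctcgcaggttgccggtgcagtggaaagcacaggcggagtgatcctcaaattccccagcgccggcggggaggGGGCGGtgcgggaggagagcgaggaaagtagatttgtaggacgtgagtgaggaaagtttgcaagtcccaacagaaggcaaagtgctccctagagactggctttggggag
The starts of Col4a1 and Col4a2 were 77 bases apart, and their windows shared 176 bases. The Col4a1 window held 2 CCAAT and 2 GGGCGG matches, the Col4a2 window 1 and 2, and the Col4a5 window 0 and 1. CCAAT was found in 37.7% and 30.6% and GGGCGG in 34.9% and 52.9% of the 27457 promoters of that length and of the 85 member promoters that could be matched. For TATAAA the shares were 14.3% and 21.2%, for TGANTCA 7.33% and 10.6% and for CACGTG 6.65% and 3.53%, and the 3 windows shown held 0 matches to these. A match describes the letters only.

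Col4a1 had 48.5, 63.6 and 75.2 RPM (lowest, median, highest) in wt naive and 42.9, 45.0 and 51.6 RPM in wt crush libraries, and 51.6, 62.9 and 78.7 RPM in TG naive and 33.9, 42.8 and 48.4 RPM in TG crush libraries. The TG crush libraries all lay below the TG naive ones, whereas the wt groups overlapped. Col4a1 fell to 0.656 times in TG rats (log2 change -0.61, SE 0.09, limma adjusted p = 0.000192) and to 0.707 times on the mean (log2 change -0.50, SE 0.06, limma adjusted p = 1.48e-05). The wt value of -0.39 (SE 0.09, adjusted p = 0.0526) missed the threshold.

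Col4a2 had 38.7, 48.0 and 61.6 RPM (lowest, median, highest) in wt naive and 37.1, 39.9 and 43.5 RPM in wt crush libraries, and 41.9, 49.7 and 58.0 RPM in TG naive and 29.9, 34.5 and 42.2 RPM in TG crush libraries. Its groups overlapped in both genotypes, with 7 of 12 crush libraries below every naive library. Col4a2 fell to 0.711 times in TG rats (log2 change -0.49, SE 0.08, limma adjusted p = 0.00124) and to 0.762 times on the mean (log2 change -0.39, SE 0.06, limma adjusted p = 0.000153), and had -0.29 (adjusted p = 0.113) in wt rats. The calls of Col4a1 and Col4a2 in TG rats and on the mean were kept with each of the 28 libraries left out and under every alternative that tested the gene (13 for Col4a1 and 12 for Col4a2).

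Col4a5, a chain of the minor collagen IV networks, had 13.7, 19.4 and 23.7 RPM (lowest, median, highest) in wt naive and 14.9, 15.7 and 17.97 RPM in wt crush libraries, and 16.8, 18.4 and 19.6 RPM in TG naive and 12.95, 15.2 and 17.8 RPM in TG crush libraries. It fell on the mean (log2 change -0.26, SE 0.06, limma adjusted p = 0.00663), with -0.24 (adjusted p = 0.147) in wt and -0.28 (adjusted p = 0.0575) in TG rats. The call was lost with the endothelial and pericyte level as a covariate (-0.16, adjusted p = 0.111) and without the libraries high in Slc17a7 (-0.23, adjusted p = 0.0539).

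Col4a1 and Col4a2 also varied together between libraries of the same group. After removal of the group means, Pearson's r of the log2 levels was 0.84 and Spearman's rho 0.82 over 28 libraries (permutation p = 1e-05, the smallest that 100000 resamples can give, adjusted p = 4.00e-05 over 8 pairs for both). Without the 2 libraries farthest from the median r was 0.82, and within groups it ran from 0.68 in TG crush to 0.91 in wt crush libraries. With median-of-ratios rescaling of the libraries r was 0.83. Genes of 1 library also share its mixture of cells, whose part in these correlations was not tested.

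Col1a1 and Col1a2, the chains of collagen I, had r = 0.92 and rho = 0.90 (permutation, adjusted p = 4.00e-05 for both), and r = 0.90 without the farthest 2 libraries. Col1a1 and Col3a1 had r = 0.50 and rho = 0.53 (permutation, adjusted p = 0.0126 and 0.0111), and r = 0.54 without those 2. Col6a1 and Col6a2 had r = 0.52 and rho = 0.44 (permutation, adjusted p = 0.0126 and 0.0397), and r = 0.39 without them. The collagen pairs thus passed the permutation test, with the collagen I and collagen IV pairs the tightest of the 8.

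The pairs with Mmp14 and the laminin pair had lower correlations. Mmp14 and Col4a1, although both fell on the mean, had r = 0.08 and rho = 0.10 within groups (permutation, adjusted p = 0.690 and 0.689). Mmp14 and Mmp2 had r = 0.10 and rho = 0.07 (permutation, adjusted p = 0.690 and 0.707). Mmp14 and Timp2, whose protein links MT1-MMP to the MMP2 proenzyme, had r = 0.42 and rho = 0.39 (permutation, adjusted p = 0.0426 and 0.0706), and r = 0.36 without the farthest 2. With median-of-ratios rescaling that r was 0.276 and did not pass (permutation, adjusted p = 0.251). Lamb1 and Lamc1, chains of the same laminins, had r = 0.21 and rho = 0.18 (permutation, adjusted p = 0.368 and 0.473), and r = 0.06 without the farthest 2. Within groups that r differed in sign, with -0.54 in wt naive, 0.96 in wt crush, 0.13 in TG naive and 0.57 in TG crush libraries.

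**Figure D4:**
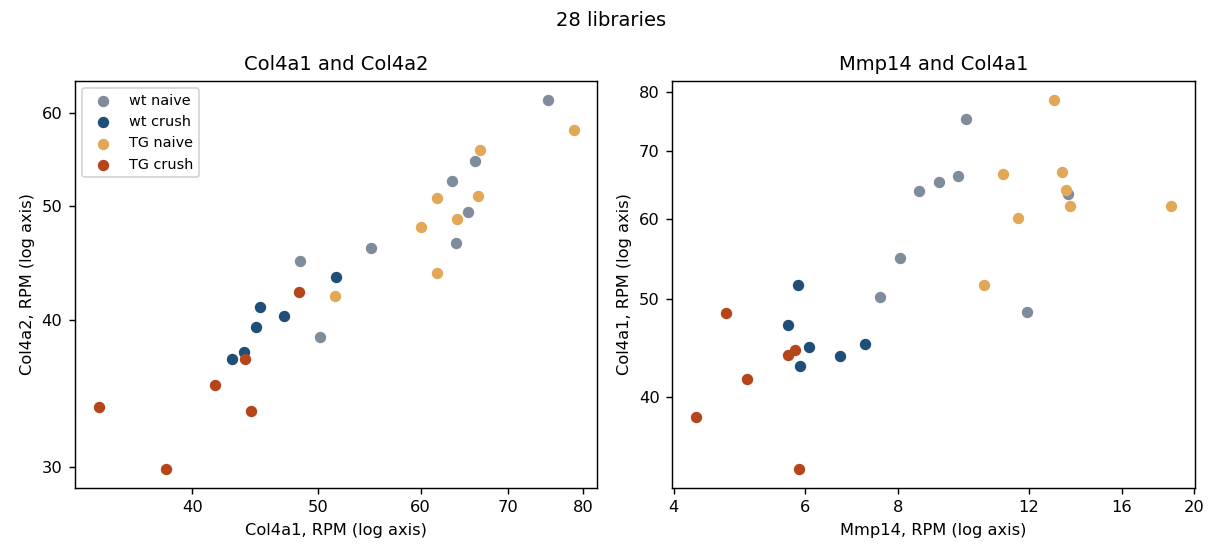
Levels of Col4a1 against Col4a2 and of Mmp14 against Col4a1 in 28 libraries, in RPM on log axes, with points coloured by group. Col4a1 and Col4a2 vary together within groups (r = 0.84 after removal of group means), whereas Mmp14 and Col4a1 differ between naive and crush libraries with r = 0.08 within groups.

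Among the laminins 1 of 11 chains fell on the mean, the gamma chain gene Lamc3. It had 12.3, 16 and 18.1 RPM (lowest, median, highest) in wt naive and 9.87, 11.4 and 13.9 RPM in wt crush libraries, and 12.7, 14.8 and 17.2 RPM in TG naive and 11.7, 13.9 and 15.6 RPM in TG crush libraries. The groups overlapped in both genotypes, and the lowest level was in a wt crush library. The mean change was -0.26 (SE 0.06, adjusted p = 0.00934), with -0.39 (adjusted p = 0.0526) in wt and -0.13 (adjusted p = 0.439) in TG rats. The call was lost with the endothelial and pericyte covariate (-0.22, adjusted p = 0.1004).

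Lamc1, the gamma chain of most laminins, differed little between groups, with 61.9, 69.6 and 73.5 RPM (lowest, median, highest) in wt naive and 63.8, 68.0 and 70.1 RPM in wt crush libraries, and 62.3, 67.5 and 70.2 RPM in TG naive and 63.7, 66.1 and 72.4 RPM in TG crush libraries, and its mean change was -0.02 (interval of 2 SE on each side, -0.07 to 0.04). Lamb1, the beta chain often paired with it, had 0.02 (adjusted p = 0.919). Lamb2, a beta chain of vessel and synaptic basement membranes, had -0.17 (adjusted p = 0.0599), and Lama5, a chain of vessel basement membranes, -0.19 (adjusted p = 0.113). The endothelial alpha chain Lama4 had 0.10 (adjusted p = 0.351). These 4 laminin chains did not pass.

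Of the 11 fibrillar collagens 3 fell on the mean, and 10 had a value below 0. Col1a1, a chain of collagen I, had 11.4, 14.1 and 19.7 RPM (lowest, median, highest) in wt naive and 9.76, 11.5 and 12.8 RPM in wt crush libraries, and 9.30, 14.4 and 19.9 RPM in TG naive and 8.40, 10.9 and 14.3 RPM in TG crush libraries. Its groups overlapped, with 1 of 12 crush libraries below every naive library, and it fell on the mean (log2 change -0.35, SE 0.10, limma adjusted p = 0.0231). Col1a2, the other chain of collagen I, had -0.11 (adjusted p = 0.475) and did not pass.

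Col5a3, a chain of collagen V, had 27.9, 40.5 and 52.9 RPM (lowest, median, highest) in wt naive and 25.6, 29.5 and 30.5 RPM in wt crush libraries, and 27.6, 36.8 and 44.0 RPM in TG naive and 21.9, 29.3 and 39.4 RPM in TG crush libraries. It fell on the mean (log2 change -0.35, SE 0.10, limma adjusted p = 0.0218), with 4 of 12 crush libraries below every naive library. Col3a1, which forms mixed fibres with collagen I, had 8.31, 11.4 and 13.2 RPM (lowest, median, highest) in wt naive and 6.02, 8.38 and 8.85 RPM in wt crush libraries, and 8.02, 9.82 and 10.8 RPM in TG naive and 6.27, 8.66 and 12.8 RPM in TG crush libraries. It fell on the mean (log2 change -0.27, SE 0.08, limma adjusted p = 0.0333), again with 4 of 12 crush libraries below every naive library. The calls of Col1a1 and Col5a3 were lost without TG crush library 222 (adjusted p = 0.0542 and 0.0524), with the endothelial and pericyte covariate (0.223 and 0.258) and without the libraries high in Slc17a7 (0.114 and 0.149), and that of Col1a1 also with the spiny neuron covariate (-0.29, adjusted p = 0.0614). Col11a2, the fibrillar collagen with the most reads, had -0.11 (adjusted p = 0.339).

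Of the remaining collagens 1 fell, the transmembrane collagen Col23a1, with 1.204, 1.79 and 2.51 RPM (lowest, median, highest) in wt naive and 0.878, 1.13 and 1.34 RPM in wt crush libraries, and 1.33, 1.603 and 3.26 RPM in TG naive and 1.25, 1.35 and 2.05 RPM in TG crush libraries. Its mean change was -0.40 (SE 0.10, adjusted p = 0.0165), and the groups overlapped in both genotypes. Of 8 tested fibril-associated collagens 0 passed, with 1 at an unadjusted p under 0.05 on the mean in limma and 0 calls in limma-voom. The same counts held for the 6 tested chains of collagens VI, VII and VIII, where Col6a1 had -0.17 (adjusted p = 0.115) and Col6a2 -0.12 (adjusted p = 0.380). Col18a1, the precursor of endostatin and a basement membrane collagen, had 0.06 (adjusted p = 0.838) with an SE of 0.18, and Col15a1, its relative, -0.04 (adjusted p = 0.704).

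Of the inhibitors, Timp4 had 18.6, 27.1 and 31.3 RPM (lowest, median, highest) in wt naive and 19.4, 20.5 and 23.4 RPM in wt crush libraries, and 20.5, 29.0 and 37.5 RPM in TG naive and 17.98, 23.3 and 30.4 RPM in TG crush libraries. It fell on the mean (log2 change -0.28, SE 0.09, limma adjusted p = 0.0427), with overlapping groups, and the call was lost in 18 of 28 fits with a library left out. Timp3, which binds to the matrix, had 0.05 (adjusted p = 0.513), Timp2 -0.13 (adjusted p = 0.355) and the inducible Timp1 -0.36 (adjusted p = 0.0628).

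Of the 17 tested ADAMTS proteases 0 passed on the mean in limma, with 6 at an unadjusted p under 0.05, and limma-voom called 0 as well. With array weights Adamts19 and Adamts3 rose and Adamts4 and Adamts10 fell. Adamts19 had 4.52, 5.92 and 9.96 RPM (lowest, median, highest) in wt naive and 6.49, 7.74 and 9.67 RPM in wt crush libraries, and 3.29, 5.08 and 11.1 RPM in TG naive and 4.99, 7.79 and 11.7 RPM in TG crush libraries, and a mean change of 0.40 (adjusted p = 0.0580), which passed with median-of-ratios rescaling (0.43, adjusted p = 0.0455) and with quantile normalization (0.44, adjusted p = 0.0453). Adamts3, a procollagen N-proteinase, had 0.25 (adjusted p = 0.109). The 6 tested proteoglycanases, which cut aggrecan and its relatives, all had mean values below 0, with -0.22 (adjusted p = 0.135) for Adamts4 and -0.03 (adjusted p = 0.781) for Adamts20, and 0 of the 6 passed. Adamts10, whose protein binds fibrillin, had -0.14 (adjusted p = 0.121).

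The ADAMTS-like proteins lack the protease domain, and 1 of 5 fell on the mean. Adamtsl4 had 1.41, 1.94 and 2.88 RPM (lowest, median, highest) in wt naive and 1.07, 1.48 and 1.91 RPM in wt crush libraries, and 1.80, 2.43 and 3.12 RPM in TG naive and 1.02, 1.53 and 3.50 RPM in TG crush libraries. Its highest value of all was in TG crush library 223, and its mean change was -0.36 (SE 0.12, adjusted p = 0.0477), a call lost in 18 of 28 fits with a library left out. Col4a3bp, the gene of the ceramide transfer protein, had 0.11 (adjusted p = 0.0522).

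**Figure D5:**
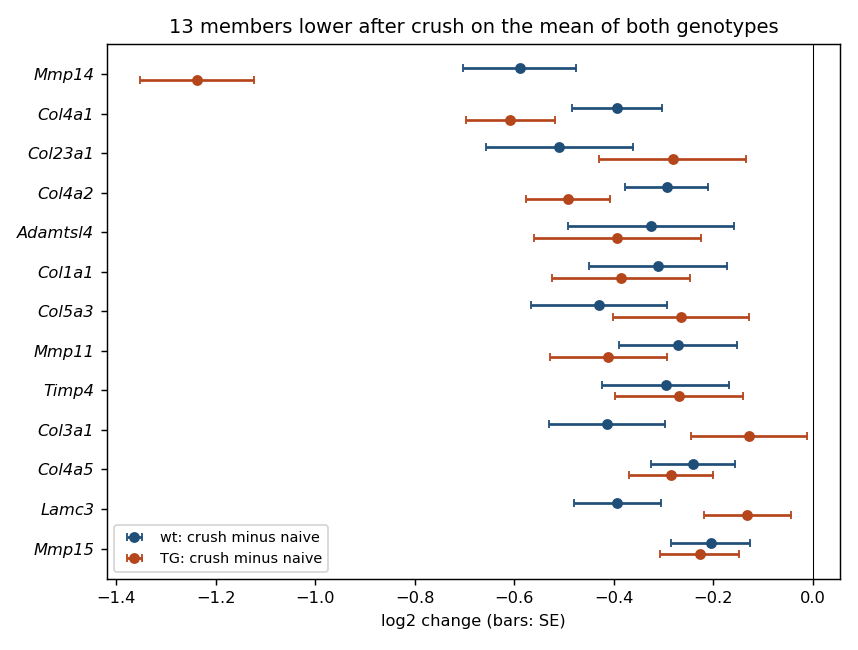
Log2 change after crush in wt and in TG rats, with bars for the SE, for the 13 members that fell on the mean of both genotypes. All points lie below 0, and Mmp14 in TG rats lies farthest from it at -1.24.

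Markers of vessel cells were among the genes that fell in the same contrast, where 8.42% of all genes fell. Of 11 endothelial markers 5 fell on the mean, Tek, Pecam1, Slc2a1, Flt1 and Emcn, with a list median of -0.16, and of 10 pericyte markers 2 fell, Kcnj8 and Higd1b, with a median of -0.09. The summed endothelial level was 618 to 789 RPM in wt naive, 617 to 721 RPM in wt crush, 676 to 804 RPM in TG naive, 584 to 810.3 RPM in TG crush libraries, and the summed pericyte level 223 to 295 RPM in wt naive, 226.8 to 262 RPM in wt crush, 236 to 287 RPM in TG naive, 225 to 313 RPM in TG crush libraries. The median summed endothelial level was 748 RPM in wt naive, 633 RPM in wt crush, 736 RPM in TG naive and 630 RPM in TG crush libraries. For the pericyte markers the medians were 273, 238, 257 and 253 RPM in the same order. The summed ranges overlapped between all groups, and 0 markers of these lists were at 0 in all libraries. Of 13 tested fibroblast and meningeal markers 1 fell, Slc6a13, with a median of -0.05 and a summed level of 180.3 to 278 RPM in wt naive, 167 to 193 RPM in wt crush, 168 to 241 RPM in TG naive, 152 to 300.3 RPM in TG crush libraries, while Foxc2 was at 0 in all libraries.

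Markers of other cell types are given beside the same 8.42% of all genes that fell and the 3.03% that rose. Of 10 markers each, 4 microglial, 4 astrocyte and 1 oligodendrocyte marker fell on the mean, with medians of -0.24, -0.18 and -0.04. Of 4 smooth muscle, 7 choroid plexus and 5 ependymal markers tested 0 passed in limma, with 0, 1 and 1 at an unadjusted p under 0.05 and medians of -0.01, -0.44 and -0.61, and the smooth muscle gene Myh11 was at 0 in all libraries. Of 5 tested pituitary markers 2 rose, Gh1 and Prl. The summed level of the 8 pituitary markers was uneven between libraries. It was 3.01 to 8.07 RPM (median 5.21) in wt naive and 4.10 to 184 RPM (median 16.6) in wt crush libraries. In TG naive libraries it was 4.38 to 40.8 RPM (median 6.46) and in TG crush libraries 4.23 to 80.1 RPM (median 8.91). With the endothelial and pericyte level as a covariate, Mmp14 (-0.91, adjusted p = 4.11e-07), Col4a1 (-0.38, adjusted p = 0.000100) and Col4a2 (-0.32, adjusted p = 0.00397) still fell on the mean. The other 10 members were no longer called in that fit, and Lama4 rose (0.24, adjusted p = 0.0430). The part of the other marker lists in these results was not tested, apart from the spiny neuron and fibroblast covariates.

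Lists of genes that build or handle the matrix are given beside the 8.42% of all genes that fell on the mean. The lists here and in the next paragraph were chosen with earlier results of these data known. Their counts are therefore descriptive and are not independent support. Of 11 tested genes of collagen processing and crosslinking 5 fell on the mean and 0 rose: the transglutaminase Tgm2 (log2 change -1.05, SE 0.07, limma adjusted p = 4.55e-11), the lysyl oxidases Lox at -0.64 (adjusted p = 0.000506), Loxl1 at -0.34 (adjusted p = 0.00144) and Loxl3 at -0.29 (adjusted p = 0.0151), and the collagen-binding protein Sparc at -0.31 (adjusted p = 0.0194). In wt rats Tgm2 fell, by 0.69 on the log2 scale (adjusted p = 0.000758), and in TG rats Tgm2 at -1.42 (adjusted p = 1.61e-10), Lox at -0.64 (adjusted p = 0.0165) and Loxl1 at -0.46 (adjusted p = 0.00463). Of 19 genes of collagen folding 3 fell on the mean and 0 rose, the collagen chaperone Serpinh1 at -0.26 (adjusted p = 0.0189), the prolyl isomerase Ppib at -0.15 (adjusted p = 0.0133) and the lysyl hydroxylase Plod3 at -0.16 (adjusted p = 0.0302). Of 14 basement membrane partners 1 fell and 0 rose, the nidogen Nid2 at -0.28 (adjusted p = 0.00448).

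Of 13 tested receptors for collagen and laminin 3 fell on the mean and 0 rose, the integrin chains Itga7 at -0.35 (adjusted p = 0.00136) and Itga6 at -0.21 (adjusted p = 0.0228), both of laminin receptors, and the collagen uptake receptor Mrc2 at -0.30 (adjusted p = 0.0299). Of 13 brain proteoglycans and partners 2 fell and 0 rose, Cspg5 at -0.20 (adjusted p = 0.00868) and Bcan, the gene of brevican, at -0.14 (adjusted p = 0.0381). Of 15 regulators of matrix proteases 3 fell, the tissue plasminogen activator Plat at -0.35 (adjusted p = 0.00288), the thrombospondin Thbs2 at -0.42 (adjusted p = 0.0118) and the MMP inducer Bsg at -0.10 (adjusted p = 0.0293). Plat also fell in TG rats, at -0.49 (adjusted p = 0.00733).

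No member was called by genotype. Against wt, 0 of 86 members passed in naive TG rats, where 0.0329% of all genes were called, 0 in crush rats (0.00549%) and 0 on the mean of both (0.0384%). At an unadjusted p under 0.05 limma gave 7, 11 and 4 members, against 4.98%, 8.06% and 5.09% of all genes, and limma-voom on whole reads gave 0 calls in each. These comparisons share libraries with the crush comparisons.

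In naive rats Mmp14 was the member of lowest p, with a log2 difference of 0.41 between TG and wt (SE 0.11, limma adjusted p = 0.394). In crush rats its difference was -0.24 (SE 0.12, adjusted p = 0.630), so that the naive TG libraries had the highest and the TG crush libraries the lowest median of the 4 groups. Lama1, an alpha chain of early basement membranes, had 4.09, 6.25 and 7.93 RPM (lowest, median, highest) in wt naive and 4.91, 5.63 and 6.62 RPM in wt crush libraries, and 3.90, 4.47 and 5.25 RPM in TG naive and 4.08, 5.56 and 6.83 RPM in TG crush libraries. Its log2 difference was -0.40 in naive (adjusted p = 0.468) and -0.06 in crush rats (adjusted p = 0.910). Lamb3, an epithelial laminin chain, had 1.95, 2.40 and 2.98 RPM (lowest, median, highest) in wt naive and 1.94, 2.51 and 3.43 RPM in wt crush libraries, and 1.201, 1.86 and 2.65 RPM in TG naive and 1.51, 1.68 and 2.16 RPM in TG crush libraries. It had the lowest p on the mean of both (-0.35, SE 0.09, adjusted p = 0.409).

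The naive difference of Col4a1 between TG and wt had an interval of 2 SE on each side from -0.09 to 0.24, that of Col4a2 from -0.14 to 0.17 and that of Col4a5 from -0.20 to 0.11. In crush rats 1 member separated the genotypes without overlap, the Mmp17 row with more reads, at 29.6 to 47.3 RPM in TG and 48.5 to 56.2 RPM in wt libraries, where 0.165% of all genes were lower without overlap. Its log2 difference was -0.31 (adjusted p = 0.606), and the other row had -0.29 (adjusted p = 0.606).

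Whether the response to crush differed between genotypes was tested by the interaction, and 0 of 86 members passed in limma or limma-voom, where 0.00549% of all genes were called in limma. At an unadjusted p under 0.05 there were 14 members, against 7.49% of all genes. Mmp14 had the lowest p, with an interaction of -0.65 on the log2 scale (SE 0.16, interval -0.97 to -0.33, adjusted p = 0.348). Next were Col12a1, a fibril-associated collagen, at 0.37 (adjusted p = 0.537), the Mmp17 rows at -0.44 (adjusted p = 0.537) and -0.46 (adjusted p = 0.551), and the proteoglycanase Adamts15 at -0.38 (adjusted p = 0.593). For Col4a1 the interaction was -0.21 (interval -0.47 to 0.04), for Col4a2 -0.20 (-0.44 to 0.04) and for Lamc3 0.26 (0.01 to 0.51, adjusted p = 0.658). The calls of Col4a1 and Col4a2 in TG and not in wt rats are therefore not shown to differ between the genotypes.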

How the data were processed

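RNA of 28 libraries was measured by single-end sequencing after a stranded mRNA preparation, spread over 2 runs, per the labels' protocols. The run that held each library, and whether counting used strand, are not given in the sources used here. No run term was fitted, and run and group cannot be told apart. Per the submitters' processing notes, the tools were STAR 2.6.1a, featureCounts (Subread 1.6.3) and DESeq2 1.22.2, and the build was Rnor_6.0. The authors deposited 1 table of RPKM values with decimal commas, recorded here as unit other for that reason. The deposited RPKM were divided by the gene span with introns in all 39538 genes, so a minimum on RPKM drops long genes, and 24 members would have been tested instead of 86. RPKM times length in kilobases gave RPM. In each library 100% of RPM values were whole reads within 0.02 reads.

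A single fit in limma 3.58.1 (R 4.3.3) took log2(RPM + 0.5) of all 28 libraries on the 4 groups, with a variance trend, for genes of at least 0.5 RPM in at least 6 libraries. Fold changes on this scale understate changes of low genes. P-values were adjusted over all 18222 genes tested (Benjamini-Hochberg), and calls were made under 0.05. The script was tested on simulated data. Correlations used permutation tests (scipy 1.17.1). Groups came from the labels. The highest correlation between libraries was 0.997, and no file columns were left without a sample.

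The naming rule took members called in any of 7 contrasts, the 5 of lowest p per contrast and the 2 of highest level per role. It also took up to 4 called genes of each other list. Members that met the rule only by p or level are not all described, among them Col25a1, Adamts7, Adamtsl3 and Col16a1. Genes outside this rule (Col1a2, Col4a3, Col4a4, Mmp16, Mmp23, Mmp28, Timp1, Sparc and Emcn) were chosen after their values were seen. Members and lists were chosen with earlier results of these data known. Of 200 list entries 198 matched the table. Alternatives were other pseudocounts, filters, scalings, array weights, the RPKM scale, limma-voom on whole reads, 3 marker covariates, omission of libraries high in Slc17a7 and of each library. Promoters came from RefSeq (GRCr8), where 85 of 107 gene identifiers matched, and motifs were searched on both strands. Some results are not reported here.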

Additional observations from a re-analysis of the deposited data

Results flagged for a closer look

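The 208 sets of values checked were the 4 groups of each of the 52 members that met the naming rule. Of these sets 15 held a library far from the others of its group by Dixon's test, of which chance alone gives about 1 in 20 sets. TG crush library 223 held 4 of the 15: it was highest for Mmp19 with 2.32 RPM (next 1.42) and for Col26a1 with 0.310 RPM (next 0.142), and lowest for Adamts3 with 23.0 RPM (next 38.7) and for the Mmp17 row with more reads with 29.6 RPM (next 41.4).

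Of the members that fell after crush, Mmp14 stood apart in TG naive library 190 with 18.6 RPM (next 13.6) and Mmp11 in wt crush library 209 with 0.397 RPM (next 0.745). Among the other proteases, Mmp2 was lowest in TG naive library 187 with 5.75 RPM (next 7.75), Mmp24 in wt crush library 210 with 61.4 RPM (next 67.8), and Adamts19 was highest in wt naive library 195 with 9.96 RPM (next 6.99). Col12a1 was lowest in wt crush library 203 with 8.21 RPM (next 11.8) and highest in TG crush library 219 with 14.2 RPM (next 13.2). Col15a1 was lowest in TG naive library 187 with 1.74 RPM (next 2.74) and highest in TG crush library 214 with 3.41 RPM (next 2.41). Col8a1 was highest in wt crush library 207 with 0.686 RPM (next 0.488), and Col4a3bp in TG naive library 188 with 104.6 RPM (next 91.4).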

How the results depend on the processing

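Counts of members called after crush changed most. In wt rats (1 member) the count was 14 with array weights (1 higher, 13 lower), 0 with the spiny neuron, the endothelial and pericyte or the fibroblast and meningeal level as a covariate, 2 without libraries high in Slc17a7, and 0 to 11 with 1 library left out. In TG rats (3 members) it was 11 with array weights, 10 with the spiny neuron and with the fibroblast covariate, 6 with the endothelial covariate, and 3 to 9 with 1 library left out. On the mean (13 members) it was 6 on the RPKM scale, where 24 members are tested, 28 with array weights (4 higher, 24 lower), 4 with the endothelial covariate, 5 without libraries high in Slc17a7, and 8 to 24 with 1 library left out. The genotype and interaction counts were 0 under every alternative. With median-of-ratios rescaling r was -0.0270 for Lamb1 and Lamc1, -0.00937 for Mmp14 and Col4a1, and 0.276 for Mmp14 and Timp2, which then missed the threshold; apart from the RPKM scale, the cause was not tested. Of 688 values of single called genes under alternatives, 600 kept direction and call, 88 no longer passed and 0 reversed. Col3a1 was lost under 7 of 12 alternatives, Timp4 under 7 of 13 and Adamtsl4 under 8 of 12. No paired analysis was possible because the groups share no replicate number. Without the filter 0 of the 20 members under the minimum that had reads were called in any contrast.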
